A study of Mus musculus with 16 samples.

Results

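The genes described here make or sense prostaglandins and leukotrienes, 10 in all: Pla2g4a, Ptgs1, Ptgs2, Ptges, Ptgds, Hpgds, Alox5, Alox5ap, Ltc4s and Ptger4. A gene was taken through a probe set that carries its symbol and no other in the platform annotation. This gave 9 of the 10 genes, with 1 probe set each, among 19938 genes tested in the whole series. Ptgs1, the constitutive cyclooxygenase, was listed for no probe set under its symbol and was not analysed here.

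Whole-brain RNA of male mice aged 8 weeks was measured on Affymetrix Mouse Gene 1.0 ST arrays, 4 in each of 4 groups. The groups were naive C57BL/6 mice, C57BL/6 mice 24 h after permanent middle cerebral artery occlusion (pMCAO), naive mice labelled TNF knockout, and mice labelled TNF knockout at the same time after pMCAO. Naive mice had no operation, so that a change after stroke holds surgery and occlusion together. The labels used here do not describe the TNF allele or its strain background. Nor do they say that each array is a separate animal, so the p-values measure the spread between arrays, which may be technical.

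The array values are log2 probe set summaries with array medians of 6.01 to 6.05. The number of arrays limits the precision, and no detection calls were used, so the lower limit of reliable measurement is not known. Markers of neurons, astrocytes and oligodendrocytes all lay above the overall median of 6.035 in each group, as for brain tissue. Among the measured genes described here, Ptgs2 and Ptgds alone had naive means above that median. The naive means of the others lay below it in both genotypes. Tnf itself read higher in the arrays labelled TNF knockout than in C57BL/6 arrays, by 1.11 ± 0.14 (SE) without stroke and by 1.24 ± 0.14 after it. This goes against the label. Whether the probe set lies inside the deleted stretch is not known from the labels, and these groups are therefore called the arrays labelled TNF knockout. In bulk tissue, a change in the number of cells of a type and a change in RNA per cell cannot be told apart.

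Eicosanoids are made from arachidonic acid, which cytosolic phospholipase A2 (Pla2g4a) frees from membrane phospholipids. Cyclooxygenases (Ptgs1, Ptgs2) turn it into prostaglandin H2, from which terminal synthases make prostaglandin E2 (Ptges) or prostaglandin D2 (Ptgds, Hpgds). In the other branch, 5-lipoxygenase (Alox5), helped by its activating protein (Alox5ap), makes leukotriene A4, which Ltc4s joins to glutathione. In brain, Ptgs2 is expressed by excitatory neurons and induced by synaptic activity and inflammation, Ptgds is abundant in meninges, choroid plexus and oligodendrocytes, and the leukotriene enzymes are mostly those of myeloid cells.

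The 3 genes that act in turn from membrane phospholipids to prostaglandin E2 were higher after stroke when both genotypes were averaged. Ptgs2 rose by 0.58 ± 0.10 on the log2 scale (SE, 1.5-fold, limma adjusted p = 0.00148). Pla2g4a rose by 0.39 ± 0.08 (1.31-fold, adjusted p = 0.00712) and Ptges by 0.35 ± 0.07 (1.27-fold, adjusted p = 0.0058). The other 6 measured genes, those of the prostaglandin D2 and leukotriene branches and the receptor gene Ptger4, did not pass the threshold. Over all genes, 1.78% passed upwards and 1.03% downwards in this average, against 3 of 9 and 0 of 9 here. The median change of the 9 genes was 0.19, and that of all genes tested was -0.0025. Without any 1 of the 16 arrays, and under each of 8 other settings, these 3 genes passed in the average, with adjusted p of at most 0.0328. The average is built from the same arrays as the separate comparisons below and is not independent of them.

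To show the regulatory sequence of these 3 genes, their promoter windows from RefSeq (build GRCm38.p6) are printed, from 250 bases before to 50 bases after the annotated start. Of the 10 genes, 9 had a window in the table, and Pla2g4a had a further start whose window is not printed. Capitals mark short motifs found on either strand. The C/EBP palindrome was searched as TTNCGNAA, a pattern bound by C/EBP factors of the acute inflammatory response. The half-site of the cAMP response element was searched as TGACG, the core that CREB and ATF proteins bind. The E-box was searched as CACGTG, which basic helix-loop-helix factors bind. The GC box was searched as GGGCGG, which Sp proteins bind in many promoters. The TATA box was searched as TATAAA, which lies near the start of some genes.
Ptgs2, chr1:150099781-150100080, plus strand: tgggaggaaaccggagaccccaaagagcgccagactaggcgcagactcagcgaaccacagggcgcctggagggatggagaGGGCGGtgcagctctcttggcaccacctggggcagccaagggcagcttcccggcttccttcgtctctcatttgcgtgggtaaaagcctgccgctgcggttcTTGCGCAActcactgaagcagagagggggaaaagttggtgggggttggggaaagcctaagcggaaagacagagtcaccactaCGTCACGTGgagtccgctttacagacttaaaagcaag
Pla2g4a, chr1:149961241-149961540, minus strand: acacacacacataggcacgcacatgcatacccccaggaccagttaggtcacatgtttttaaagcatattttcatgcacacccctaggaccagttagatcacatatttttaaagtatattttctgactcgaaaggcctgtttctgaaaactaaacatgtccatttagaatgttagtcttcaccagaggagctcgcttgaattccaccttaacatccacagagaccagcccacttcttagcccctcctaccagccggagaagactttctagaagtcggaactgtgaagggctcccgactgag
Ptges, chr2:30903248-30903547, minus strand: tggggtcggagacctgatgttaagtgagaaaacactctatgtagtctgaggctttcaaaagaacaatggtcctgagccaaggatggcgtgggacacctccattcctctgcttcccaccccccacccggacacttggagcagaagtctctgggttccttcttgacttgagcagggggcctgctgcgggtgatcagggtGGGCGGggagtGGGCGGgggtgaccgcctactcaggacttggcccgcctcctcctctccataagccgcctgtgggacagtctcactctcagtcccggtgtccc

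In the Ptgs2 window the C/EBP palindrome lay at -69 to -62 from the annotated start, a half-site at 14 to 18 on the reverse strand and an E-box at 17 to 22, the last pair overlapping. The palindrome is found in 2.47% of the 32851 promoter windows in the table, the half-site in 20.8% and the E-box in 7.15%, and of the 10 windows of these genes only that of Ptgs2 held any of them. GC boxes lay in 4 of the 10 windows, among them 1 match in Ptgs2 and 2 in Ptges, against 35.7% of all windows. No motif searched was present in the printed Pla2g4a window. The unprinted one held the letters of the TATA box on the reverse strand at -200 to -195, not near the start (13.6% of all windows, either strand). The NF-kB motif, also searched, was in 0 of the 10 windows and in 1.47% of all windows. A match or its absence describes only these letters in these windows. Pla2g4a and Ptgs2 are next to each other among the protein-coding genes of chromosome 1 and are annotated on opposite strands.

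Pla2g4a, which releases arachidonic acid, rose after stroke in C57BL/6 mice. The naive C57BL/6 arrays read 5.59, 5.62, 5.82 and 5.75, and the stroke arrays read 5.99, 6.26, 6.18 and 6.42. All 4 stroke arrays lay above all 4 naive ones, a gain of 0.52 ± 0.11 (1.43-fold, adjusted p = 0.0183). Pla2g4a was the 1 gene of the 9 that passed or did not overlap in this comparison, where 1.34% of all genes passed upwards, 0.336% downwards, and 5.03% had stroke arrays wholly above naive ones. The call was narrowly lost without naive array 1 (adjusted p = 0.0598) or 2 (0.0572), or without stroke array 2 (0.0562), 3 (0.055) or 4 (0.0647), while the gain stayed between 0.45 and 0.59 in every fit that left out 1 array.

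Pla2g4a in the arrays labelled TNF knockout read 5.77, 5.85, 5.89 and 6.00 without stroke and 5.90, 5.97, 6.32 and 6.34 after it. Here 2 of the stroke arrays lay within the naive range, and the difference of 0.26 ± 0.11 did not pass (adjusted p = 0.516). With the sample name prefix, KL76 or KL82, as a term it was 0.14 (adjusted p = 0.892). Within KL76 the difference was 0.06 and within KL82 it was 0.21. The naive arrays with this label lay higher than those of C57BL/6 by 0.18 ± 0.11, also short of the threshold (adjusted p = 0.406). The stroke changes of the genotypes differed by -0.26, with a 95% confidence interval of -0.58 to 0.06 (adjusted p = 0.711), so that neither an equal nor a clearly smaller change in the arrays labelled TNF knockout was shown. With the prefix as a term the stroke changes differed by -0.38 (adjusted p = 0.433).

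**Figure D1:**
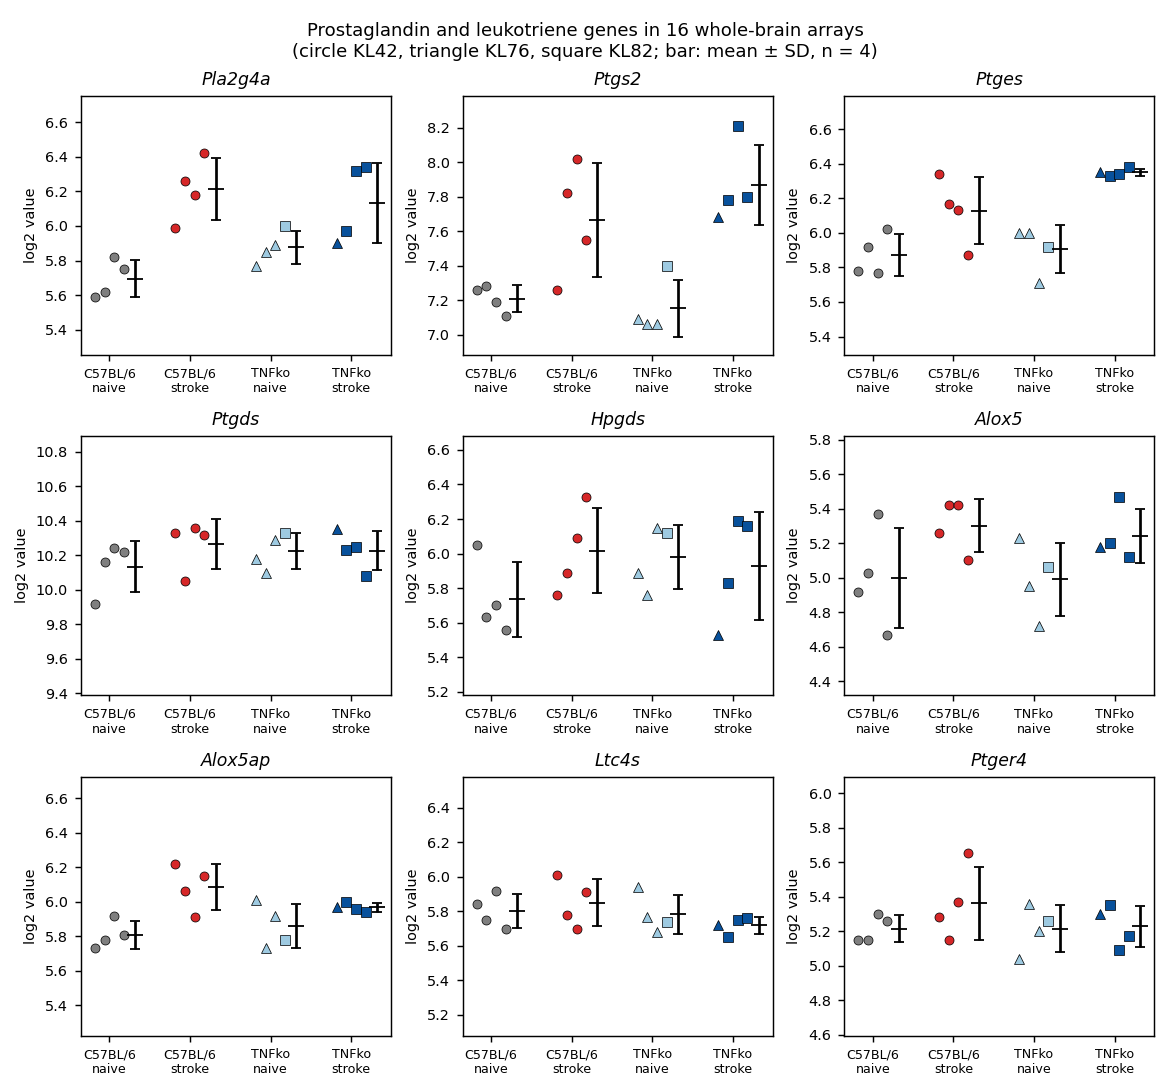
Log2 values of the 9 measured genes in each of the 16 arrays, by group, with mean ± SD beside each group (n = 4); symbols give the sample name prefix, and each panel spans the same log2 range. The stroke arrays of Pla2g4a in C57BL/6 mice and of Ptgs2 and Ptges in the arrays labelled TNF knockout (TNFko) lie wholly above their naive arrays, whereas Ptgds, Hpgds, Alox5, Alox5ap, Ltc4s and Ptger4 overlap in both genotypes.

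Ptgs2, the inducible cyclooxygenase, had the largest average change of the 9 genes. In the arrays labelled TNF knockout it read 7.09, 7.06, 7.06 and 7.40 without stroke and 7.68, 7.78, 8.21 and 7.80 after it. Every stroke array was higher than every naive array, and the gain was 0.72 ± 0.14 (1.64-fold, adjusted p = 0.0134). The call missed the threshold without naive array 1 (adjusted p = 0.0573), 2 (0.061) or 3 (0.0501) or stroke array 3 (0.0671), and with the sample name prefix as a term (0.57, adjusted p = 0.142). That prefix is unexplained in the labels. It is KL76 in 3 naive arrays (1 to 3) and 1 stroke array (array 1), and KL82 in the remaining 4. The gain was 0.61 within KL76 and 0.53 within KL82.

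In C57BL/6 mice the naive arrays of Ptgs2 read 7.26, 7.28, 7.19 and 7.11, a narrow range. The stroke arrays spread from 7.26 in array 1 over 7.55 in array 4 and 7.82 in array 2 to 8.02 in array 3. Stroke array 1 thus lay within the naive range, the other 3 above it. The difference of 0.45 ± 0.14 did not pass (adjusted p = 0.105), but without stroke array 1 it was 0.59 and passed (adjusted p = 0.018). Ptgs2 passed here in only this 1 of the 16 fits without 1 array and under 0 of 8 other settings, array weights among them. Stroke array 1 had the lowest array weight of the 16 (0.51). Between the genotypes the stroke change differed by 0.26 (95% confidence interval -0.14 to 0.67, adjusted p = 0.77).

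Ptges, the inducible synthase that finishes prostaglandin E2, was nearly constant among the stroke arrays labelled TNF knockout. These read 6.35, 6.33, 6.34 and 6.38, against 6.00, 6.00, 5.71 and 5.92 in the naive arrays of that label. The groups did not overlap, and the gain was 0.44 ± 0.10 (1.36-fold, adjusted p = 0.033). Ptgs2 and Ptges were the 2 of 9 genes that passed upwards in this comparison and also the 2 without overlap, beside 0.537% of all genes that passed upwards, 0.105% that passed downwards and 2.8% with stroke arrays wholly above naive ones.

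The gain of Ptges was 0.45 within KL76 and 0.43 within KL82, but the call did not survive the prefix term (0.44, adjusted p = 0.134), quantile normalization (0.42, adjusted p = 0.0568) or any fit that left out 1 of these 8 arrays. Its adjusted p was then 0.058, 0.0613, 0.149 and 0.073 without naive arrays 1 to 4, and 0.0876, 0.0777, 0.0998 and 0.106 without stroke arrays 1 to 4. In C57BL/6 mice Ptges read 5.78, 5.92, 5.77 and 6.02 without stroke and 6.34, 6.17, 6.13 and 5.87 after it. Only array 4 fell into the naive range, and the difference of 0.26 ± 0.10 did not pass (adjusted p = 0.183). The C57BL/6 stroke arrays did not rank alike for the genes of this route: array 1 was lowest for Ptgs2 and Pla2g4a and highest for Ptges. Array 1 also stood out beyond these genes: without it, 639 of all genes passed for stroke in C57BL/6 mice, against 334 with it.

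Ptger4, which encodes the EP4 receptor for prostaglandin E2, overlapped between naive and stroke arrays in both genotypes. Its values ran from 5.15 to 5.30 in naive and from 5.15 to 5.65 in stroke arrays of C57BL/6 mice (0.15 ± 0.10, adjusted p = 0.473), with array 4 at the top. With the TNF knockout label they ran from 5.04 to 5.36 and from 5.09 to 5.35 (0.01 ± 0.10, adjusted p = 0.994). The interval of the average change, -0.068 to 0.228, overlaps those of Ptges (0.2075 to 0.49) and, narrowly, Pla2g4a (0.2258 to 0.5467). It lies below that of Ptgs2 (0.3811 to 0.7864). Whether Ptger4 changed less than these 3 genes was not tested.

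Neither prostaglandin D2 synthase passed in any comparison. Ptgds, the lipocalin-type synthase, ranged from 9.92 to 10.24 in naive and from 10.05 to 10.36 in stroke arrays of C57BL/6 mice (0.13 ± 0.09, adjusted p = 0.502). With the TNF knockout label it ranged from 10.10 to 10.33 and from 10.08 to 10.35 (a change of 0.0025 ± 0.0934, adjusted p = 0.996). The average change of Ptgds was 0.07 with a 95% interval of -0.07 to 0.20, that is, changes beyond 0.20 in either direction lie outside it. Lists of cells known to hold Ptgds overlapped between naive and stroke arrays of C57BL/6 mice in mean log2 value: 9.12 to 9.42 and 9.20 to 9.59 for 9 oligodendrocyte markers, 6.88 to 7.17 and 6.93 to 7.17 for 9 choroid plexus markers, and 6.47 to 6.66 and 6.54 to 6.79 for 12 meningeal and perivascular fibroblast markers. With the TNF knockout label the same lists read 9.06 to 9.24 and 8.86 to 9.16, 7.12 to 7.29 and 6.90 to 7.14, and 6.68 to 6.74 and 6.73 to 6.86, overlapping in each case. Among the meningeal and perivascular fibroblast markers 1 of 12, Aldh1a2, rose in C57BL/6 mice (0.66 ± 0.14, adjusted p = 0.0188) and with the TNF knockout label (0.73 ± 0.14, adjusted p = 0.0128), and in the average Aldh1a2 rose and Igf2 fell (-0.35 ± 0.08, adjusted p = 0.0211). Of the oligodendrocyte and choroid plexus markers 0 passed in these comparisons (limma; at most 2 of each list at an unadjusted p under 0.05).

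Hpgds, the haematopoietic synthase found in microglia and mast cells, was among the more variable of these genes, with SDs of 0.19 to 0.31 within the groups. In C57BL/6 mice it read 6.05, 5.63, 5.70 and 5.56 without stroke and 5.76, 5.89, 6.09 and 6.33 after it (0.28 ± 0.15, adjusted p = 0.34). The arrays labelled TNF knockout read 5.89, 5.76, 6.15 and 6.12 without stroke and 5.53, 5.83, 6.19 and 6.16 after it (-0.05 ± 0.15, adjusted p = 0.976). The naive and stroke ranges overlapped in both genotypes. The stroke changes differed by -0.34 with a wide interval, -0.78 to 0.11, which does not decide their order.

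The leukotriene genes Alox5 and Alox5ap did not pass the threshold in either genotype or in the average. Alox5 read 4.92, 5.03, 5.37 and 4.67 in naive and 5.26, 5.42, 5.42 and 5.10 in stroke arrays of C57BL/6 mice (0.30 ± 0.13, adjusted p = 0.248). It read 5.23, 4.95, 4.72 and 5.06 in naive and 5.18, 5.2, 5.47 and 5.12 in stroke arrays labelled TNF knockout (0.25 ± 0.13, adjusted p = 0.648). The naive groups were the wider ones, and the groups overlapped in both genotypes. The average change of Alox5 was 0.28 ± 0.09 (adjusted p = 0.124), and it passed in 1 of 16 fits that left out an array, without naive C57BL/6 array 3 (0.34, adjusted p = 0.0395).

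Alox5ap read 5.73, 5.78, 5.92 and 5.81 in naive and 6.22, 6.06, 5.91 and 6.15 in stroke arrays of C57BL/6 mice (0.28 ± 0.08, adjusted p = 0.102). Stroke array 3 alone lay within the naive range. In the arrays labelled TNF knockout the naive values were 6.01, 5.73, 5.92 and 5.78 and the stroke values 5.97, 6.00, 5.96 and 5.94 (0.11 ± 0.08, adjusted p = 0.825). These stroke arrays were close together and sat at the upper end of the naive range. The average was 0.19 ± 0.06, with an interval of 0.07 to 0.31 and an adjusted p of 0.089.

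Ltc4s, which makes leukotriene C4, had the average change nearest to 0 of the 9 genes, -0.0075 ± 0.0591 (95% interval -0.13 to 0.12). Its values ran from 5.70 to 5.92 and from 5.70 to 6.01 in naive and stroke arrays of C57BL/6 mice. They ran from 5.68 to 5.94 and from 5.65 to 5.76 in those labelled TNF knockout. The stroke values lay within or just beyond the naive range in each case.

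**Figure D2:**
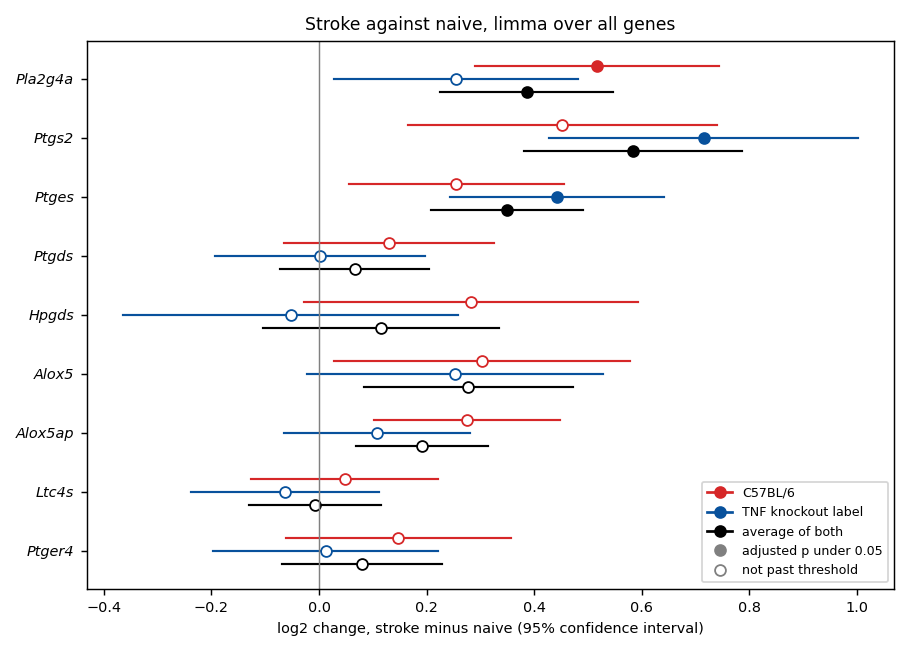
Log2 change from naive to stroke with 95% confidence intervals for the 9 genes, in C57BL/6 mice, in the arrays labelled TNF knockout and averaged over both; filled points passed the limma threshold (adjusted p under 0.05). Pla2g4a, Ptgs2 and Ptges are filled in the average, at 0.39, 0.58 and 0.35, and Ptgds and Ltc4s lie near 0.

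The comparison of the genotypes asks whether these genes depend on TNF, as far as the labels hold. In naive mice 0 of the 9 genes passed (limma; 0 at an unadjusted p under 0.05), and differences ran from -0.06 for Ptgs2 to 0.25 for Hpgds. All 9 overlapped between the genotypes there; 0.386% of all genes passed and 8.65% did not overlap. After stroke 0 of the 9 passed (limma; 1 at an unadjusted p under 0.05), beside 0.436% of all genes, and again all 9 overlapped, beside 5.8% of all genes that did not. The 1 gene was Ptges, higher by 0.22 ± 0.10 in arrays with the TNF knockout label (unadjusted p = 0.0309, adjusted p = 0.39).

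The difference of the stroke changes passed for 0 of the 9 genes (limma; 0 at an unadjusted p under 0.05) and for 0% of all genes, of which 1480 had an unadjusted p under 0.05. Ptgs2 and Ptges had the larger estimated stroke change in the arrays labelled TNF knockout and the other 7 genes in C57BL/6 mice. With SEs of 0.12 to 0.21 for these differences, no gene of this group was shown to respond differently by genotype. All C57BL/6 arrays carry the prefix KL42 and none of the others does, so that prefix and genotype cannot be told apart.

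Around these genes, 79 of 88 listed genes of the wider eicosanoid pathway were measured. In the average of both genotypes 2 of them rose and 1 fell (3.8% of the 79, beside 1.78% and 1.03% of all genes), with a median change of 0.015. Anxa1, whose product annexin A1 limits phospholipase A2 activity and acts on lipoxin receptors, rose by 0.57 ± 0.10 in the average (adjusted p = 0.00353). It passed in C57BL/6 mice, from 5.51 ± 0.19 (SD, n = 4) to 6.36 ± 0.36 (0.85 ± 0.15, adjusted p = 0.00462), and not in the arrays labelled TNF knockout, from 6.03 ± 0.10 to 6.31 ± 0.24 (0.28 ± 0.15, adjusted p = 0.654). In the naive arrays of that label Anxa1 was already higher by 0.52 ± 0.15, which missed the threshold (adjusted p = 0.102), and the difference of the stroke changes was -0.58 ± 0.21 (adjusted p = 0.583).

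Among 24 genes of arachidonate release and reacylation, Dagla fell in the average. This gene, the main neuronal diacylglycerol lipase and maker of the endocannabinoid 2-AG, went from 8.65 ± 0.11 to 8.35 ± 0.14 in C57BL/6 mice and from 8.67 ± 0.13 to 8.36 ± 0.13 in the arrays labelled TNF knockout. The change was -0.305 in each (SE of the average 0.07, adjusted p = 0.0137, and 0.0537 with the prefix as a term). Mgll, the lipase that breaks 2-AG down to arachidonic acid, fell by 0.40 ± 0.09 in arrays with the TNF knockout label (adjusted p = 0.0324), from 9.01 ± 0.11 to 8.61 ± 0.16, and read 8.68 ± 0.08 and 8.70 ± 0.05 in C57BL/6 mice (0.02 ± 0.09, adjusted p = 0.94). That call ended once the prefix was a term (-0.29, adjusted p = 0.272) or only the groups compared were fitted (adjusted p = 0.106). It was also lost without naive array 1 (adjusted p = 0.074), 2 (0.0904) or 3 (0.148) or stroke array 2 (0.128), 3 (0.139) or 4 (0.0883). Averaged over both genotypes Mgll did not pass (-0.19 ± 0.06, adjusted p = 0.102), except without stroke array 1 of that label (-0.23, adjusted p = 0.0331).

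Of 14 other lipoxygenase and leukotriene genes 1 rose in the average, Aloxe3, an epidermal-type lipoxygenase (0.32 ± 0.07, adjusted p = 0.0137). Its group means were 5.87 ± 0.14 and 6.24 ± 0.20 in naive and stroke C57BL/6 arrays and 6.12 ± 0.11 and 6.39 ± 0.06 in those labelled TNF knockout. Neither genotype passed alone (adjusted p = 0.0606 and 0.378). In C57BL/6 mice Aloxe3 did pass without stroke array 4 (0.45, adjusted p = 0.0259), with quantile normalization (0.0493), without the dimmest genes (0.0309) and with trended and robust variance (0.0442). The remaining 3 lists of prostanoid genes had 0 members past the threshold in the 6 comparisons (limma): 7 other synthases and reductases, 8 receptors and 8 genes of transport and degradation. Each of these lists had at most 1 gene at an unadjusted p under 0.05 in any comparison. Of 11 epoxygenase and epoxide hydrolase genes 0 passed as well (limma), with 3 at an unadjusted p under 0.05 for the difference of the stroke changes, 2 between genotypes after stroke and 1 in each of the other 4 comparisons.

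The smallest p-values of those lists in the average belonged to Tbxas1, thromboxane synthase (0.22 ± 0.07, adjusted p = 0.0967), Ptgdr2, a prostaglandin D2 receptor (-0.15 ± 0.09, adjusted p = 0.399), Hpgd, the dehydrogenase that inactivates prostaglandins (0.22 ± 0.10, adjusted p = 0.286), and Cyp2j6 (0.16 ± 0.07, adjusted p = 0.281). Hpgd, a step that opposes Ptgs2 and Ptges, read 6.47 ± 0.15 and 6.90 ± 0.25 in naive and stroke C57BL/6 arrays, and 6.44 ± 0.26 and 6.46 ± 0.27 in those labelled TNF knockout. Both of its changes were short of the threshold (adjusted p = 0.142 and 0.995).

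After stroke 2 of the 79 genes (2.53%, beside 0.436% of all genes) were lower in the arrays labelled TNF knockout than in C57BL/6 arrays, and 0 were higher. Gpr17, an orphan receptor of oligodendrocyte precursors related to the cysteinyl leukotriene receptors, read 6.92 ± 0.07 against 7.44 ± 0.17 (-0.52 ± 0.11, adjusted p = 0.0264). The 9 oligodendrocyte markers differed in the same direction after stroke. Of these 0 were above 0, their median was -0.345, 5 did not overlap and 1, Cnp, passed (-0.46 ± 0.08, adjusted p = 0.00503). Without stroke the markers were already lower in that label: 1 of 9 was above 0, the median was -0.255, 2 did not overlap and 0 passed. Gpr17 read 7.16 ± 0.17 against 7.13 ± 0.19 in those naive arrays. The part of these markers in the difference of Gpr17 was not tested. Pla2g7, which degrades platelet-activating factor, read 10.34 ± 0.11 against 10.68 ± 0.09 (-0.35 ± 0.08, adjusted p = 0.0442). In naive arrays it was already lower with that label, 10.44 to 10.55 against 10.56 to 10.64 without overlap, though it did not pass there. Gpr17 missed the threshold without C57BL/6 stroke array 2 (adjusted p = 0.0981) or 4 (0.0789) or stroke array 1 (0.0814), 3 (0.0757) or 4 (0.0942) of the other label. Pla2g7 held in only 2 of the 16 fits without 1 array, those without C57BL/6 stroke array 3 (0.0415) or stroke array 3 of the other label (0.0356), and reached an adjusted p of 0.186 in the rest. It also missed the threshold with quantile normalization (0.0843), array weights (0.0655) and only the groups compared (0.172).

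**Figure D3:**
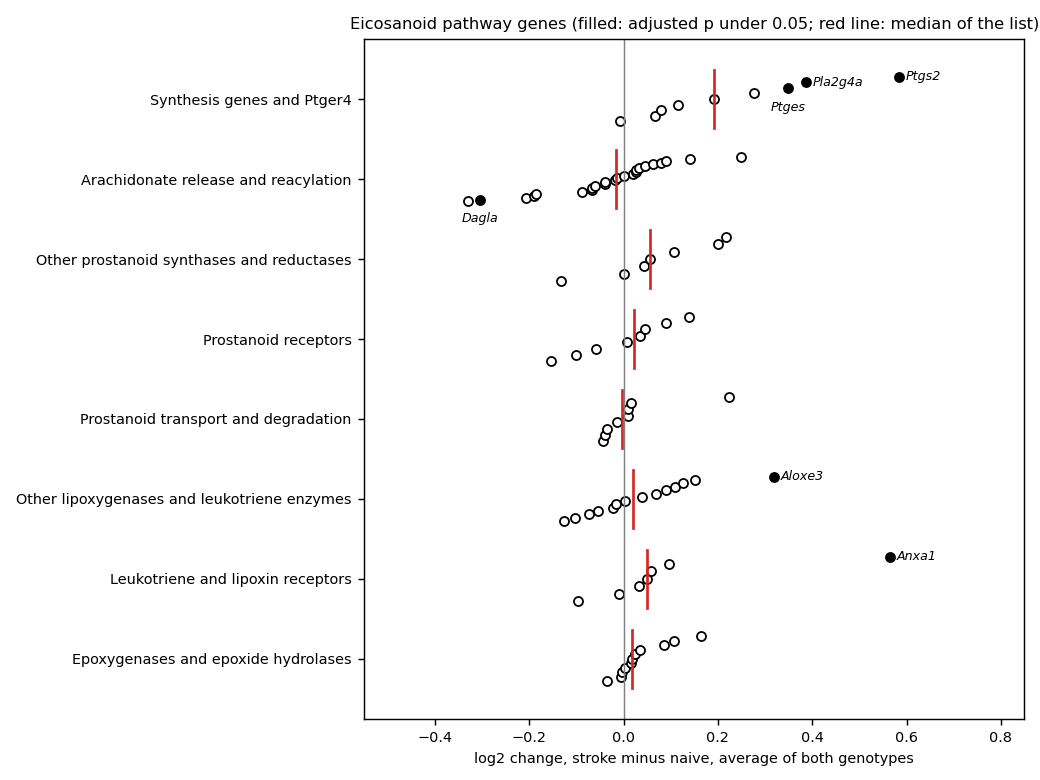
Log2 change from naive to stroke, averaged over both genotypes, of the 9 measured genes (top row) and of 79 wider pathway genes in 7 lists; filled points passed the limma threshold and red lines are list medians. Apart from Ptgs2, Pla2g4a and Ptges in the top row, the filled points are Anxa1 at 0.57, Aloxe3 at 0.32 and Dagla at -0.305.

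Since several of these genes are expressed by myeloid cells, marker lists of those cells are set beside them. Of 9 markers of activated microglia and macrophages 5 rose in each genotype, among them Cd68 (1.09 ± 0.08 in C57BL/6 mice, adjusted p = 1.94e-07, and 0.60 ± 0.08 in the other label, adjusted p = 0.000372). The mean log2 value of the list went from 5.17 to 5.33 in naive to 5.84 to 6.35 in stroke arrays of C57BL/6 mice and from 5.13 to 5.29 to 5.70 to 5.86 in the other label. Stroke and naive arrays therefore did not overlap in either genotype. After stroke Cd68 was lower in the arrays labelled TNF knockout than in C57BL/6 arrays (-0.38 ± 0.08, adjusted p = 0.034). Of 9 microglia markers 0 rose and 1, Siglech, fell in C57BL/6 mice (limma), with list means of 6.64 to 6.76 in naive and 6.60 to 6.82 in stroke arrays. In the arrays labelled TNF knockout 0 of the 9 passed, and the list means were 6.53 to 6.70 and 6.42 to 6.58.

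Neutrophil markers, 11 in number, all lay below the overall median in every group, with list means of 3.9973 to 4.22 in naive and 4.05 to 4.51 in stroke arrays of C57BL/6 mice and 3.97 to 3.9955 and 4.18 to 4.47 in the other label. Among them 3 rose in the average, including Clec4d (0.75 ± 0.15, adjusted p = 0.00817). Of 10 mast cell and basophil markers, cells that carry Hpgds, Alox5 and Ltc4s, 9 lay below the overall median and 0 passed in any stroke comparison (limma; at most 1 at an unadjusted p under 0.05); their list means were 4.435 to 4.57 in naive and 4.40 to 4.51 in stroke C57BL/6 arrays, and 4.42 to 4.51 and 4.485 to 4.59 in those of the other label. Excitatory and general neuron markers had 0 of 9 past the threshold, with list means of 10.39 to 10.44 and 10.37 to 10.44 in naive and stroke C57BL/6 arrays. With the TNF knockout label the neuron list read 10.41 to 10.49 without stroke and 10.29 to 10.37 after it, without overlap, though 0 of the 9 genes passed there (limma; 1 at an unadjusted p under 0.05). The part of any of these cells in the changes of Pla2g4a, Ptgs2 and Ptges was not tested.

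**Figure D4:**
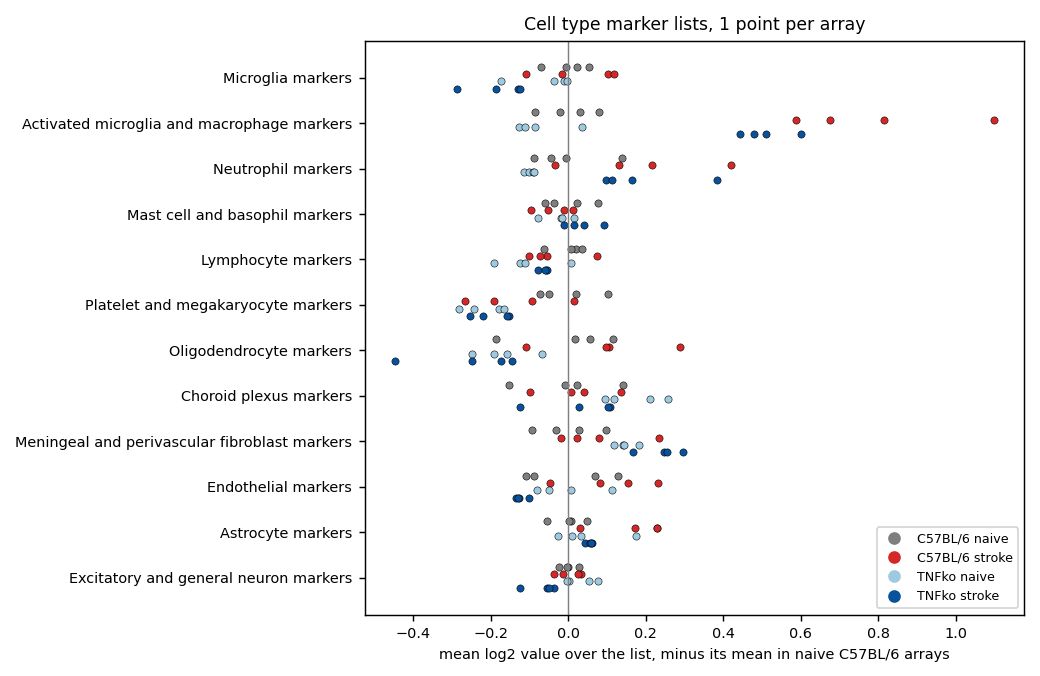
Mean log2 value of each cell type marker list in each of the 16 arrays, as a difference from the list's mean in naive C57BL/6 arrays. The stroke arrays of both genotypes are set apart from the naive ones for activated microglia and macrophage markers, while mast cell and neuron markers lie near 0. With the TNF knockout label alone, the stroke arrays also lie wholly above the naive ones for neutrophil markers. They lie wholly below them for endothelial and neuron markers.

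For the 3 genes that passed, the genes with the most similar course over the 16 arrays were sought by the root mean square difference of log2 deviations from each gene's own mean. Nearest to Ptgs2 were Ms4a4a (0.13), Cd44 (0.16) and Gadd45g (0.18), against a root mean square of 0.36 for Ptgs2 itself. Ms4a4a is a gene of myeloid cells, Cd44 a hyaluronan receptor and Gadd45g a stress-induced gene. Their stroke changes were 0.48, 0.60 and 0.44 in C57BL/6 mice and 0.64, 0.79 and 0.69 in the arrays labelled TNF knockout. Since they were picked for likeness to Ptgs2 over these same arrays, stroke changes like those of Ptgs2 follow from the choice. Nearest to Pla2g4a were Alg8 (0.10), Pnrc2 (0.10) and Nudt12 (0.11), and nearest to Ptges were Rdh10 (0.13), Pik3ap1 (0.14) and Atp10d (0.14), with root mean squares of 0.25 and 0.22 for the 2 genes themselves. No gene was among the nearest of more than 1 of the 3. With so few picked from all named genes, this does not show that their courses differ.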

How the data were processed

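Affymetrix Mouse Gene 1.0 ST arrays measured whole-brain RNA. The authors deposited log2 values, 1 per probe set and array. Of tools, the submitters' processing notes list RMA, GCRMA, GCOS and Partek, with neither version nor role, so the summary method used is not known. The 28944 probe sets were named through GEO's platform annotation. The 21789 with 1 symbol gave 19938 genes, by the probe set of highest mean where a gene had several.

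All 16 arrays entered 1 linear model with a mean per group (limma 3.58.1, lmFit and eBayes, R 4.3.3), with 12 residual degrees of freedom. P-values were two-sided and adjusted by Benjamini and Hochberg over all genes in each of 6 comparisons, with a threshold of 0.05. No filter on dim genes was applied. The fit was checked on simulated data. Other settings were quantile normalization, median centring, a filter on dim genes, averaging probe sets of a gene, trended and robust variance, array weights, a replicate block, fits of only the groups compared, a prefix term, a threshold of 0.01, and leaving out each array.

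All members were described. From each pathway list the text names up to 3 genes past the threshold per comparison, or the gene with the smallest p in the average where none passed; similar genes are the 3 nearest, without unnamed gene models. Genes and lists were chosen with earlier results of these data known. Promoters came from RefSeq. Figures were drawn with Python 3.11.15 and matplotlib 3.10.9.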

Additional observations from a re-analysis of the deposited data

Results flagged for a closer look

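In 36 groups of 4 arrays (9 genes in 4 groups), 2 held an array far from the other 3, and chance alone sets apart about 1 group in 20. Ptgs2 read 7.40 in naive array 4 of those labelled TNF knockout, against 7.06 to 7.09 in the other 3; it is the only naive array of that label with the prefix KL82. Ptgds read 10.05 in stroke array 2 of C57BL/6 mice, against 10.32 to 10.36 in the other 3. No gene of the 9 met the threshold for a difference of the stroke changes between genotypes, and none had all stroke arrays on opposite sides of the naive mean in the 2 genotypes.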

How the results depend on the processing

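The count of 3 genes past the threshold in the average of both genotypes was 3 to 4 in the fits without 1 array and held under the other settings run, the threshold of 0.01 included. The counts of 0 between genotypes and for the difference of the stroke changes stayed at 0 throughout. In C57BL/6 mice the count of 1 was 0 to 2 without 1 array and 0 at a threshold of 0.01. In the arrays labelled TNF knockout the count of 2 was 0 to 2 without 1 array, 1 with quantile normalization, 0 with the prefix as a term and 0 at a threshold of 0.01. No called change of a named gene changed sign in any setting; the causes of lost calls were not tested.

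Counts over all genes moved more. For stroke in C57BL/6 mice 334 genes became 536 without the dimmest genes, 516 with trended and robust variance, 98 with only the groups compared, 76 at the threshold of 0.01 and 107 to 639 without 1 array. Under the TNF knockout label 128 calls after stroke became 212 with array weights, 72 with the prefix, 54 at 0.01 and 69 to 145 without 1 array. For the average 559 became 332 with the prefix, 217 at 0.01 and 369 to 629 without 1 array. Between genotypes in naive mice 77 became 185 without the dimmest genes, 51 with only the groups compared, 20 at 0.01 and 23 to 138 without 1 array. After stroke 87 became 164, 46, 36 and 47 to 120 in the same order, and 162 with trended and robust variance. The difference of the stroke changes, at 0, reached 4 with trended and robust variance, 1 with array weights and 0 to 3 without 1 array.

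The replicate numbers were not taken as pairs in the main fit. Of 24 same-numbered pairs across groups, 10 correlated above 0.1 in their deviations from the group means (-0.07 to 0.34). An array correlated best with its own number, of 4, in 27 of 48 cases, more often than picks at random would give. This is a hint from the data of something shared by number, whose source was not tested. With the replicate block the 9 genes gave 1, 2, 0, 0, 0 and 3 calls in the 6 comparisons, as without it. All genes gave 559 calls for stroke in C57BL/6 mice with the block and 334 without. Between naive genotypes these counts were 141 and 77, and for the difference 1 and 0. Of other genes named, Mgll under the TNF knockout label (adjusted p = 0.0502) and Pla2g7 between genotypes after stroke (0.0536) missed the threshold with the block, and Dagla passed in C57BL/6 mice (0.0257). With no detection calls, it is not known which probe sets lie near background, where a change would read too small.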
